A study of Mus musculus with 2 samples.

Results

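Adipocytes take up fatty acids at their surface, carry them through the cytosol bound to small proteins, and release glycerol through a water and glycerol channel when stored fat is broken down. Cd36 encodes a surface receptor that binds long-chain fatty acids, and Slc27a1 encodes FATP1, a membrane protein that couples fatty acid uptake to activation with coenzyme A. Fabp4 and Fabp5 encode cytosolic fatty acid binding proteins, Fabp4 being among the most abundant proteins of mature adipocytes. Aqp7 encodes the aquaglyceroporin through which adipocytes release glycerol.

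The transcripts of these 5 carriers were measured in RNA of adipocyte-derived microvesicles (ADMs) and of the adipocytes that shed them. Members were the probes whose gene name in the array files was Fabp4, Fabp5, Cd36, Slc27a1 or Aqp7, 5 of 27962 gene names, which gave 9 of 41174 gene probes with 1 spot each per array. Fabp4 had 3 probes, Cd36 and Aqp7 had 2 each, and Fabp5 and Slc27a1 had 1 each. No probe under another name carried a RefSeq accession of a member. Both RNAs came from 3T3-L1 (CL-173), an established mouse preadipocyte line with no genetic change named in the labels. Vesicles and cells came from the same kind of culture, kept in high-glucose DMEM with FCS (10%) and turned into adipocytes by insulin at 10 µg/ml, dexamethasone at 0.25 µM and 3-isobutyl-1-methylxanthine at 0.5 mM, so the donor cells are not an untreated control. ADMs were ultracentrifuged from the medium on day 11, and the donor cells were harvested that day. The labels give 2 biological replicates, each an ADM RNA and a cell RNA on 1 array of a 2-colour design. The ADM RNA carried Cy5 in replicate 1 and Cy3 in replicate 2.

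Directions follow these dye labels, and the RNAs are therefore called ADM-labelled and cell-labelled. Precision is limited by having 2 arrays, and no label says that the replicates came from separate cultures, so p-values measure only the spread between these samples, which may be technical. Net signal, the spot mean minus the median local background, was higher in the ADM-labelled RNA for most of the 18117 probes tested. The median fold over these probes was 38.8 in replicate 1 and 7.68 in replicate 2. A probe could pass the filter for testing through the ADM-labelled RNA alone. Over all unflagged gene spots the median net signals were 32.6 (ADM-labelled) and 9.43 (cell-labelled) in replicate 1, and 15.1 and 11.0 in replicate 2. Per the labels 250 ng of total RNA was labelled, so signals are per mass of RNA, and how many vesicles or cells carried a transcript and how much each carried cannot be told apart. The spike-in RNAs had median net signals of 20764 (ADM channel) and 23032 (cell channel) in replicate 1 but 5840 and 73980 in replicate 2. The spike-in signals of the channels thus lay close together in replicate 1 and far apart in replicate 2. The part of channel scaling in the unscaled folds, and in their difference between replicates, was not tested. The folds of single genes below are read by their percentile within an array. A probe is called seen in an RNA where the scanner put it well above background on both arrays. For 7 adipocyte markers, among them Adipoq, Cfd and Plin1, 8 of 8 probes were seen in ADM-labelled RNA and 7 in cell-labelled RNA. Macrophages and endothelial cells also express Cd36 and Fabp4. Of 12 probes of 5 macrophage markers, 1 (Cd68) was seen in ADM-labelled RNA and 0 in cell-labelled RNA, and of 8 probes of 4 endothelial markers 0 were seen in either. Of 10 probes of 5 preadipocyte or fibroblast markers, 10 were seen in ADM-labelled RNA and 6 in cell-labelled RNA. Under the test described below, 4 of their 9 tested probes were higher in the ADM-labelled RNA and 0 lower, where 5.52% and 10.9% of all probes were. Of these 9 probes 4 were not seen in cell-labelled RNA, 1 of them (Pdgfra) among the higher ones, and such probes passed the filter only through the ADM-labelled RNA. Of 5 tested adipocyte marker probes 1 was higher (Slc2a4, 1.39 ± 0.21; SD, n = 2) and 2 lower (Plin1, -1.33 ± 0.47, and a Retn probe, -1.16 ± 0.55). The other tested Retn probe had the opposite sign, at 0.72 ± 0.28, and did not pass (limma adjusted p = 0.0523). With the scanner's processed signals Plin1 stood at -0.02 and the lower Retn probe at -0.32, where the median of all tested probes was 0.69. With median centring both stood above that setting's median of 2.04 (4.19 for Plin1 and 4.04 for the lower Retn probe). The part of these markers in the results below was not tested.

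After normalization by loess, which sets each probe against probes of similar brightness, Cd36 and Aqp7 were the carriers higher in the ADM-labelled RNA. Of the 9 carrier probes, 7 had an unflagged value on both arrays and were tested. Under limma, with p-values adjusted by Benjamini-Hochberg over all probes and a threshold of 0.05, 2 of these 7 were higher, 1 lower and 4 did not pass. Among all probes tested 5.52% were higher and 10.9% lower, 16.4% together. The members are too few for this share to be set against the background as a result about carriers. The lower call was a Fabp4 probe whose direction turned with the processing, as described with its values below. With a normexp offset of 10 the members had 3 higher and 0 lower calls, against 10.3% and 16.9% of all probes (27.2% together). With the scanner's own processed signals they had 3 and 0 as well, against 32.0% and 14.2% (46.2% together). With median centring in place of loess all 7 were higher, against 59.5% of all probes higher and 1.46% lower (61.0% together). With plain subtraction of local background 0 passed, against 2.57% higher and 8.32% lower (10.9% together), and 0 passed where spots with outlying local background were kept, with 0 of 19807 probes called in all.

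**Figure D1:**
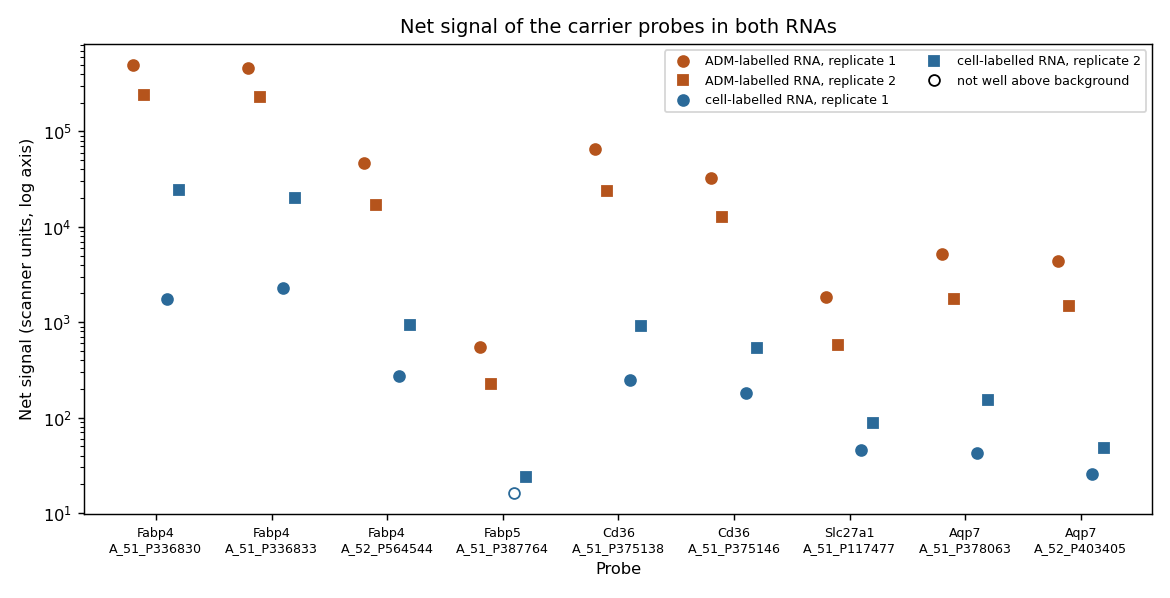
Net signal in scanner units, on a log axis, of each carrier probe in the ADM-labelled (brown) and cell-labelled (blue) RNA, with circles for replicate 1 and squares for replicate 2; the open circle is not well above background. For each probe both ADM-labelled values lie above both cell-labelled values, from 545 and 224 against 16.2 and 23.9 for Fabp5 to 492342 and 239808 against 1739 and 24498 for a Fabp4 probe; heights of different probes are not comparable.

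Cd36, the surface receptor, leaned to the vesicle side on each array with both of its probes. Probe A_51_P375138 read 64709 scanner units of net signal for ADMs against 248 for cells in replicate 1, and 23831 against 918 in replicate 2. Both ADM-labelled values thus lay above both cell-labelled values, by 261-fold and 25.9-fold within the arrays. Without any normalization these folds stood at percentile 99.2 of the tested probes in replicate 1 and 96.0 in replicate 2.

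After loess this probe had log2 ratios of 0.80 and 1.22, a mean of 1.01 ± 0.30 (SD, n = 2) or 2.01-fold (limma adjusted p = 0.0309). The second Cd36 probe, A_51_P375146, read 32376 and 181 in replicate 1 and 12594 and 539 in replicate 2, again with both ADM-labelled values on top. Its log2 ratios were 0.59 and 1.14, a mean of 0.87 ± 0.39 (SD, n = 2), which missed the threshold at a limma adjusted p of 0.0503. The probes differed from each other by 0.21 on array 1 and 0.08 on array 2, less than either SD, so both gave the same picture of Cd36. Its ratio stayed positive for both probes under every processing tried, and the call of A_51_P375138 was lost with plain subtraction of local background (limma adjusted p = 0.0522; log2 ratio 1.48) and with outlying backgrounds kept (0.736; log2 ratio 0.60). The place of A_51_P375138 and A_51_P375146 among all tested probes varied more, from percentiles 98.4 and 97.4 in the main setting. These were 88.3 and 81.8 with plain subtraction, and 70.8 and 62.9 with the scanner's processed signals. With median centring they were 99.7 and 99.2.

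In mouse build mm7 the files place A_51_P375146 at chromosome 5, 16796301 to 16796360, and A_51_P375138 at 16796811 to 16799243, with 450 bases between them. The latter interval spans 2433 bases, against 60 for the former. Exon and UTR positions of the probes were not analysed here.

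Slc27a1, the membrane transporter with acyl-CoA synthetase activity, stood slightly on the cell-labelled side and did not pass. Its only probe, A_51_P117477 (mm7 chromosome 8, 70053519 to 70053578), read 1854 scanner units for ADMs against 46.0 for cells in replicate 1, and 576 against 87.0 in replicate 2. These folds of 40.3 and 6.62 lay near the middle of the tested probes, at percentiles 51.3 and 42.9. The log2 ratios after loess were -0.36 and -0.32, a mean of -0.34 ± 0.02 (SD, n = 2; limma adjusted p = 0.115). The arrays lay close together in this setting, and both stood on the same side of 0. The cell net signal of replicate 1 lay under the normexp offset of 50. With an offset of 10 the value was -0.59 ± 0.11 (SD, n = 2), and with plain subtraction -0.68 ± 0.18. With the scanner's processed signals the value was -0.41, and with median centring it turned to 2.89, above that setting's median of 2.04 over all tested probes.

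Fabp4, the main fatty acid binding protein of adipocytes, was far brighter in the ADM-labelled RNA in raw signal, but its position relative to other genes was not settled. Probe A_51_P336830 read 492342 scanner units for ADMs against 1739 for cells in replicate 1, and 239808 against 24498 in replicate 2. The folds of 283 and 9.79 stood at percentile 99.4 of the tested probes in replicate 1 and 63.3 in replicate 2. The replicates therefore lay further apart for Fabp4 than for Cd36 in their place among all probes. The cell reading of Fabp4 was scaled up from the scanner's low-gain scan in replicate 2 and not in replicate 1, and the part of this in the result was not tested.

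After loess A_51_P336830 had log2 ratios of -0.50 and -0.68, a mean of -0.59 ± 0.13 (SD, n = 2; limma adjusted p = 0.0486). The sign turned with a smaller normexp offset (0.55 ± 0.74), with plain subtraction (0.91 ± 0.94), with the scanner's processed signals (1.49 ± 0.86) and with median centring (5.37 ± 3.09). The medians of all tested probes in those settings were 0.11, 0.22, 0.69 and 2.04. Whether brightness had a part in the change of sign was not tested, and only 3 tested probes, A_51_P336830 included, were as bright on average. Its call was also lost with a trended eBayes (limma adjusted p = 0.843), a robust one (0.0510) and when adjusted over the brightest probe of each gene (0.0513), with the ratio itself the same, and with outlying backgrounds kept at a ratio of -1.89 (0.736).

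The other Fabp4 probes carried the scanner's outlier flag for local background and were not tested. A_51_P336833 was flagged in the ADM-labelled channel of both arrays, at local backgrounds of 43.5 and 34.0 scanner units, where the medians of gene spots were 35.5 and 28.5. A_52_P564544 was flagged in replicate 1 alone, at 57.0. Next to spot means of 460489 and 229642 for the former and 46832 for the latter these backgrounds are small. With the flagged spots of the members kept, a setting chosen after seeing the data, A_51_P336833 gave log2 ratios of -1.06 and -0.43, a mean of -0.75 ± 0.45 (SD, n = 2; limma adjusted p = 0.0774). A_52_P564544 gave 0.35 and 0.75, a mean of 0.55 ± 0.29 (SD, n = 2; limma adjusted p = 0.0851).

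The Fabp4 probes thus stood on opposite sides of 0 after loess, and they lie at different places along the gene. In mm7, A_51_P336833 lies at chromosome 3, 10212636 to 10212696, A_51_P336830 at 10212718 to 10213447, and A_52_P564544 at 10216627 to 10216686. The files list these positions in descending order, as they do for Cd36 and Aqp7, which RefSeq places on the minus strand. Read that way, A_52_P564544 is the probe nearest the 5′ end, 3179 bases from A_51_P336830. Its ratio exceeded that of A_51_P336830 by 0.85 on array 1 and 1.43 on array 2, and that of A_51_P336833 by 1.41 and 1.18. The pair at the other end, 21 bases apart, differed by 0.56 on array 1 and in the opposite sense, by -0.24, on array 2. Net signals of A_52_P564544 were 46775 and 270.0 in replicate 1 and 16957 and 927 in replicate 2, so ADMs were on top here as well before normalization. In replicate 1 the unnormalized fold of A_52_P564544, 173, was below those of A_51_P336830 (283) and A_51_P336833 (202). In replicate 2 its fold of 18.3 was above theirs (9.79 and 11.4). A_52_P564544 was also dimmer than both in each RNA, so place along the gene and brightness cannot be told apart here.

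Fabp5, the epidermal fatty acid binding protein that adipocytes also make, showed no difference from genes of similar brightness that these arrays could resolve. Its probe A_51_P387764 (mm7 chromosome 3, 10022040 to 10022099) read 545 scanner units for ADMs against 16.2 for cells in replicate 1, and 224 against 23.9 in replicate 2. It was seen in ADM-labelled RNA, but the cell reading of array 1 was not well above background. The log2 ratios after loess were -0.09 and 0.10, a mean of 0.00 ± 0.14 (SD, n = 2; limma adjusted p = 0.986). Because of the dim cell reading, replicate 1 gives no measured fold for Fabp5, and its ratio there rests on that reading. The raw fold of 9.39 in replicate 2 stood at percentile 61.0 of the tested probes. Against the median of all tested probes Fabp5 lay between -0.17 (plain subtraction) and 0.11 (median centring) in the 5 processings plotted below.

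Aqp7, the glycerol channel, was higher in the ADM-labelled RNA with 1 of its 2 probes. A_52_P403405 (mm7 chromosome 4, 41172673 to 41172732) read 4418 scanner units for ADMs against 25.6 for cells in replicate 1, and 1493 against 48.0 in replicate 2. These folds of 173 and 31.1 stood at percentiles 97.2 and 97.4 of the tested probes, close to each other. The log2 ratios were 0.82 and 1.25, a mean of 1.04 ± 0.30 (SD, n = 2) or 2.05-fold (limma adjusted p = 0.0302). The cell readings were dim, at 2.11 and 2.45 times local background, and their net signals lay under the normexp offset of 50. The mean rose to 1.27 at an offset of 10. It was 2.14 from the processed intensities, where all tested probes had a median of 0.69. The size of the difference was therefore not settled. The call was lost with plain subtraction (limma adjusted p = 0.0610; log2 ratio 1.45) and with outlying backgrounds kept (0.736; log2 ratio 0.22).

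The other Aqp7 probe, A_51_P378063, overlaps the first by 38 bases (mm7 chromosome 4, 41172651 to 41172710) and gave a smaller ratio. It read 5190 and 42.8 in replicate 1 and 1766 and 154 in replicate 2, folds of 121 and 11.5 at percentiles 92.2 and 72.5, so the arrays placed it less alike than the first probe. Its log2 ratios were 0.56 and 0.27, a mean of 0.41 ± 0.21 (SD, n = 2; limma adjusted p = 0.113). The overlapping probes therefore differed by 0.26 on array 1 and by 0.98 on array 2, where the difference was larger than either probe's SD. Both ratios were positive under every processing tried, but with the scanner's processed signals A_51_P378063 stood at 0.66 and thus just under that setting's median of 0.69.

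**Figure D2:**
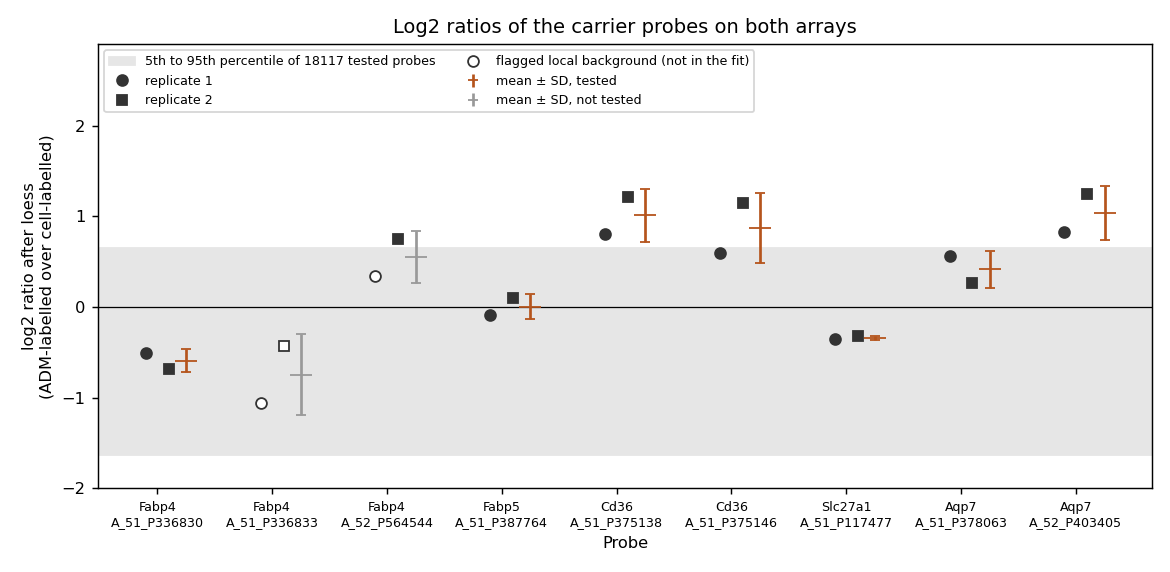
Log2 ratio (ADM-labelled over cell-labelled) after loess for each carrier probe, with circles for replicate 1, squares for replicate 2, open symbols for spots with a flagged local background, bars for mean ± SD (n = 2), and grey for the 5th to 95th percentile of all tested probes (-1.63 to 0.65). Means of both Cd36 probes (1.01 and 0.87) and Aqp7 A_52_P403405 (1.04) lie above the grey band, and the Fabp4 probes lie on both sides of 0; the sign of Fabp4 A_51_P336830 turned with the offset and the normalization.

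In order of the ratio after loess, the tested probes ran from Aqp7 A_52_P403405 (1.04) through Cd36 A_51_P375138 (1.01), Cd36 A_51_P375146 (0.87), Aqp7 A_51_P378063 (0.41), Fabp5 (0.00) and Slc27a1 (-0.34) to Fabp4 A_51_P336830 (-0.59). The first 4 overlapped their neighbours within mean ± SD, while the ranges from Aqp7 A_51_P378063 down to Fabp4 did not overlap. Each SD rests on only 2 arrays, and differences between probes in this order were not tested. This order was not that of the scanner's processed signals, where Aqp7 A_52_P403405 (2.14) and Cd36 A_51_P375138 (1.53) were followed by Fabp4 (1.49) and Slc27a1 (-0.41) was last. With median centring Cd36 A_51_P375138 (5.86) came first and Fabp5 (2.15) last.

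**Figure D3:**
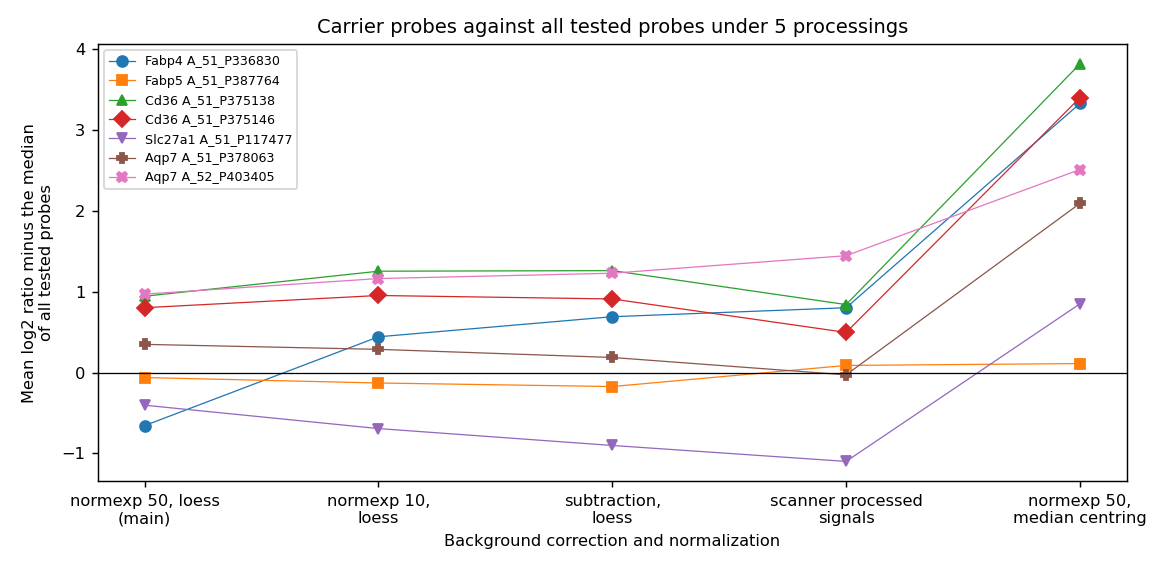
Mean log2 ratio of the 7 tested carrier probes minus the median of all tested probes, under 5 combinations of background correction and normalization. Cd36 (0.94 and 0.80 in the main setting) and Aqp7 A_52_P403405 (0.97) stay above 0 in all 5, Aqp7 A_51_P378063 drops to -0.03 with the processed signals, Fabp4 goes from -0.66 to values above 0 in the others, and Slc27a1 lies below 0 except with median centring (0.85).

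RefSeq promoter windows were held for 3 of the 5 carriers, and those of Cd36 and Aqp7 are shown because these genes had the higher calls. Each is the 250 bases before a listed transcript start (build GRCm38.p6, minus strand, chr5:17835897-17836146 for Cd36 and chr4:41048137-41048386 for the more upstream of the Aqp7 starts listed). Capitals mark AGGTCA or its reverse complement TGACCT, the half-site bound by nuclear receptors such as the PPARs.
Cd36: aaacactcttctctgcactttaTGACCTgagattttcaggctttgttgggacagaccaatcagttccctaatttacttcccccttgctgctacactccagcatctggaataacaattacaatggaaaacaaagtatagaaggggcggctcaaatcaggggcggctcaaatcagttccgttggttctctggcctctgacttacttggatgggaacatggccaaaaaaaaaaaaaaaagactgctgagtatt
Aqp7: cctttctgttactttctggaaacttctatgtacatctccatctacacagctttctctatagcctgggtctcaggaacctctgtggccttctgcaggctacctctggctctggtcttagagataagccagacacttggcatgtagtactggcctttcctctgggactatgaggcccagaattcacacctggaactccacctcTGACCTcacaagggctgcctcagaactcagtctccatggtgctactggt
Each window held 1 match, and 14.0% of 32851 promoter windows of that length held at least 1. The window of the other Aqp7 start held 2, of which 1 is the match shown, and the 3 windows of Slc27a1 held 0. TATAAA, on either strand, was in none of these 6 windows and in 12.4% of all. A match is a description of the letters and says nothing on binding in these cells.

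The other genes of fatty acid and glycerol handling were mixed, with acyl-CoA synthetases among the higher ones. Of 30 genes in the list, all had probes, and 19 of their 50 probes, from 16 genes, were tested. In limma 4 of these 19 probes were higher in the ADM-labelled RNA, 3 lower and 12 did not pass, against 5.52% and 10.9% of all probes, with a median log2 ratio of 0.08 beside 0.07 for all. The higher calls came from Acsl1 (both tested probes), Acsl3 and Cav1. Of the 19 probes 9 were not seen in cell-labelled RNA, and such probes passed the filter only through the ADM-labelled RNA. For 5 of them the cell-labelled RNA was not well above background on either array. Acsl1, which activates long-chain fatty acids, had 2.62 ± 0.41 (SD, n = 2; limma adjusted p = 0.00908), and Acsl3, which does so at droplets and the endoplasmic reticulum, 1.06 ± 0.17 (0.0226). Acsl3 was well above background in the cell-labelled RNA on only 1 of 2 arrays and passed the filter through the ADM-labelled RNA. Acsl4 and Acsl5 did not pass, with values from -0.41 to 0.14. Cav1, the caveola protein, stood at 0.90 ± 0.03 (SD, n = 2; limma adjusted p = 0.0230), a call lost with plain subtraction (limma adjusted p = 0.0695).

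On the lower side were Lpl, the lipase that frees fatty acids from lipoproteins (-2.75 ± 0.90; SD, n = 2; limma adjusted p = 0.0237), Aqp5, a water channel of secretory glands (-2.48 ± 0.25; 0.00629), and Gpihbp1, the endothelial anchor of that lipase (-1.63 ± 0.71; 0.0376). The call of Lpl was lost with a trended eBayes (limma adjusted p = 0.115) and with plain subtraction (0.0508). With median centring, where the median of all tested probes was 2.04, Lpl stood above that median at 2.97, and Aqp5 (0.56) and Gpihbp1 (-0.04) stood below it. With outlying local backgrounds kept, none of the calls of Acsl1, Acsl3, Cav1, Lpl, Aqp5 or Gpihbp1 held (limma adjusted p = 0.736 for each). These 3 stayed negative with the processed signals, at -1.17, -3.64 and -3.73.

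Some relatives of the carriers were seen in ADM-labelled RNA and others were not. Of 12 probes for other fatty acid or acyl-CoA binding proteins, 3 were seen in ADM-labelled RNA, from Fabp3 (muscle and heart), Fabp12 and Dbi (acyl-CoA binding protein). Fabp3 had -0.39 ± 0.41 and Fabp12 -0.20 ± 0.19 (SD, n = 2), neither passing (limma adjusted p = 0.212 and 0.322), and Dbi had a flagged spot and was not tested. Of the other FATP genes, Slc27a3 and Slc27a4 were seen in ADM-labelled RNA and did not pass (limma adjusted p = 0.406 and 0.647), and Slc27a2, Slc27a5 and Slc27a6 in neither RNA. Among aquaporins Aqp1 and Aqp11 (0.35 ± 0.07) did not pass (limma adjusted p = 0.187 and 0.113), and the glycerol channels Aqp3 and Aqp9 were seen in neither RNA. Fabp3, Fabp12 and Aqp11 were well above background in the cell-labelled RNA on only 1 array and passed the filter through the ADM-labelled RNA. With the scanner's processed signals they stood at -0.35, 0.72 and 1.31, where the median of all tested probes was 0.69. Glycerol kinase (Gyk), which returns glycerol to triglyceride synthesis, did not pass with either of its 2 tested probes (limma adjusted p = 0.394 and 0.851). The tested probes of Slc27a3, Slc27a4, Aqp1 and Gyk were not well above background in the cell-labelled RNA on either array, so no ratio is given for them. With the scanner's processed signals Slc27a3, Slc27a4, Aqp1 and Gyk A_51_P297671 passed as higher (limma adjusted p = 0.0215, 0.0196, 0.0218 and 0.0462). In that setting 32.0% of all probes were higher. Gyk A_52_P120066 (0.0762), Aqp11 (0.0791), Fabp3 (0.557) and Fabp12 (0.220) did not pass there.

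**Figure D4:**
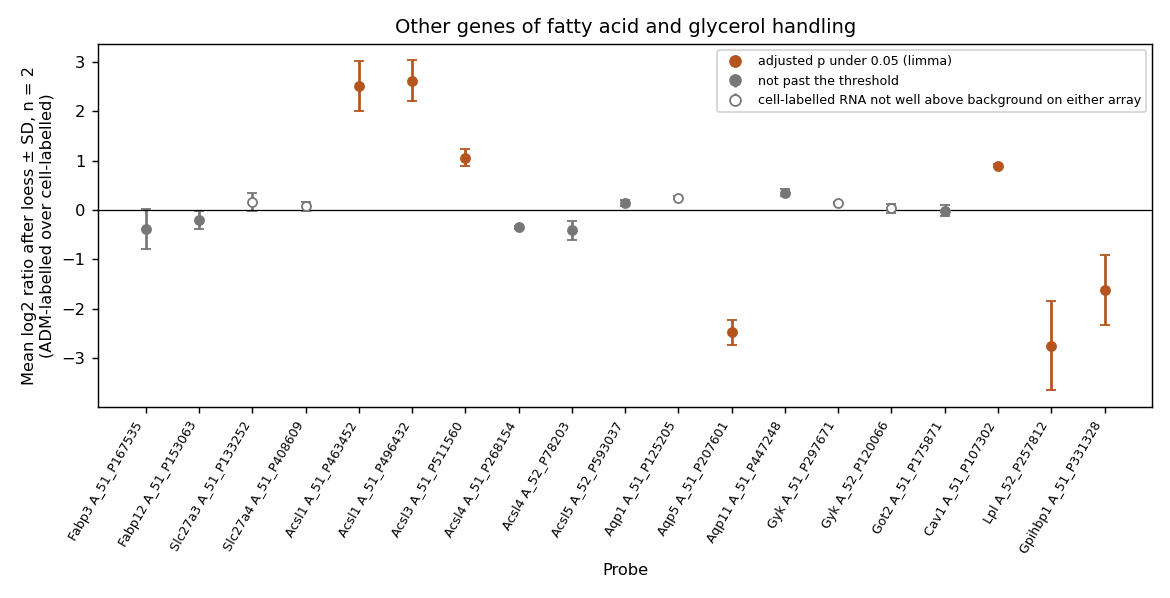
Mean log2 ratio after loess ± SD (n = 2) of the 19 tested probes of other genes of fatty acid and glycerol handling, with brown for a limma adjusted p under 0.05 and open symbols where the cell-labelled RNA was not well above background on either array, so that the size is not measured. Acsl1, Acsl3 and Cav1 lie above 0 and Aqp5, Lpl and Gpihbp1 below; with median centring (median of all probes 2.04) Lpl moved above the median (2.97) while Aqp5 (0.56) and Gpihbp1 (-0.04) stayed below it.

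The genes whose 4 background-corrected log2 signals (both RNAs on both arrays) lay nearest to those of a carrier's brightest tested probe were found by Euclidean distance. For Cd36 these were Plpp3 (0.28), Cpt2 (0.38) and Lonp2 (0.39), of which Plpp3 encodes a lipid phosphatase and Cpt2 an enzyme of mitochondrial fatty acid import. For Slc27a1 they were P2rx4 (0.15), Akip1 (0.18) and Nek7 (0.19), for Fabp5 Eif5b, Armc10 and Klf3 (each 0.06) and for Aqp7 Coq7 (0.09), Rab3a (0.10) and Limd1 (0.11). For Fabp4 the nearest were much farther off, namely Fth1 (1.76), Uqcrq (1.83) and Scd1 (2.19), since few probes were as bright. Likeness over 4 values of 2 arrays describes signal and direction only.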

How the data were processed

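RNA of ADMs and donor adipocytes was hybridised to 2 Agilent 44K mouse arrays with dyes exchanged. Per the file headers, spots were read with Feature Extraction 10.5.1.1 and annotated on mm7. The deposited mean and local background intensities are unnormalized. The processed intensities, and the log10 ratio made from them (red over green), were background-subtracted, detrended and dye-normalized, per the file headers. The authors' deposited series table equalled that log10 ratio (tolerance 0.0001) in 45018 of 45018 spots per array, with the sign of array 2 turned; its median was 0 in both columns. For very bright spots the scanner's low-gain reading had been scaled up, per the file headers.

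Spots with an outlying local background were left out, then background was corrected by normexp (offset 50), spots with an outlier flag of their own were left out and ratios were normalized by loess within arrays, with control spots at weight 0. Every ratio was turned to ADM-labelled over cell-labelled. A probe was tested if unflagged on both arrays and well above background in 1 RNA on both. Probes, not genes, were tested against 0 with limma 3.58.1 in R 4.3.3 (lmFit, eBayes, Benjamini-Hochberg, threshold 0.05), with 1 residual degree of freedom plus 2.91 prior ones. A ± is the SD of both arrays. Of 18117 simulated probes only 100 were changed by 1 log2 unit and 100 by 2, and 7 and 97 of these were called. In the fit of the arrays 16.4% of probes were called. The Benjamini-Hochberg threshold depends on that share, so the simulated counts do not give the sensitivity of the fit of the arrays.

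All member probes are named. Of the pathway list, genes past the threshold are named by their brightest probe, at most 10, and the others seen are given beside them. The 3 nearest genes per member come from those with a RefSeq name (22951 probes matched). Members and lists were chosen with earlier results of these data known. Promoter windows are RefSeq's, on GRCm38.p6. Alternatives were other offsets, subtraction, processed signals, median centring, scaling between arrays, flags kept, no filter, trended or robust eBayes, the brightest probe per gene and single arrays.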

Additional observations from a re-analysis of the deposited data

How the results depend on the processing

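In limma 2969 probes passed, against 4923 with an offset of 10, 1972 with plain subtraction, 8372 with processed signals, 11043 with median centring and 4858 with scaling between arrays. With outlying local backgrounds kept, or all flagged spots kept, 0 passed (158 and 159 at an unadjusted p under 0.05 in limma). Of the carrier probes 3 passed, against 7 with median centring, 1 of 5 with the brightest probe of each gene, and 0 with plain subtraction, with outlying backgrounds kept or with all flagged spots kept (3, 1 and 1 at an unadjusted p under 0.05 in limma). Of the other genes' probes 7 passed, against 11 with processed signals, 11 with median centring and 0 under both settings that keep flagged spots (1 each at an unadjusted p under 0.05). With median centring the prior degrees of freedom were infinite, so all probes share a variance and those p-values are not comparable.

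Ratios that changed sign were Fabp4 A_51_P336830 (0.55 with offset 10, 0.91 with subtraction, 1.49 with processed signals, 5.37 with median centring), Slc27a1 (2.89 with median centring) and Fabp5 (-0.022 with offset 10, -0.0068 with scaling between arrays). The cause was not tested. Cd36 A_51_P375146 passed under 5 alternatives, among them offset 10 (limma adjusted p = 0.0231) and processed signals (0.0361). A single array leaves no residual degree of freedom and gives no count, and the ratios without replicate 1 or without replicate 2 are the values of each array given above. The test already pairs the RNAs, because each ratio sets both RNAs of an array against each other. No further pairing was made. Signal over background limited Fabp5 most, at 1.66 and 1.72 times local background in the cell-labelled RNA.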
